A study of Gallus gallus with 4 samples.

Results

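Trimethylation of histone H3 at lysine 27 (H3K27me3) is the mark of Polycomb repression, and its longest stretches in the chick otic-epibranchial progenitors (OEPs) outside the HOX clusters are described here. The members were selected on the H3K27me3 peak positions themselves. A run was formed by joining H3K27me3 peaks on the same chromosome across gaps of 3000 bp or less, and runs that spanned 4000 bp or more were kept. Chromosomes with a number and chromosome Z were used. Runs that overlapped 4 windows of 600 to 670 kb around the HOX clusters, on chromosomes 2, 7, 27 and 33, were left out. This gave 1022 long runs of 18606 runs in all, which included 17534 shorter runs outside the windows and 15 long runs within them.

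OEPs are a region of cranial ectoderm that gives rise to the inner ear and to the epibranchial ganglia, and by the labels each sample was made from 200 dissected pieces of it, a number that the methods give as approximate, taken from chick embryos at the 8 to 9 somite stage; no treatment is named. Chromatin immunoprecipitation followed by sequencing was performed for H3K27me3 (antibody from Millipore), for acetylation of the same lysine, called H3K27ac (Abcam), and for trimethylation of lysine 4, called H3K4me3 (Diagenode), and an input library without antibody was sequenced as well. The 4 libraries share the tissue and the stage, each stands for 1 group, and the values average over the pooled pieces and over whatever cell types they held. The peak lists of the 3 marks were compared, while the input enters no comparison. The lists held 23067 H3K27me3, 27344 H3K4me3 and 45426 H3K27ac peaks, and the sequencing depth behind them is unknown. With 1 library per mark there is no replicate, so no p-value is given, and the spread between embryos was not measured. The interval given with a share is the exact 95% interval of Clopper and Pearson, in which runs or peaks count as independent and no error other than that of counting enters. The lists carry no gene names, an annotation of their build was not used here, and so the tissue was not checked against marker genes and runs are given by position on GalGal6, the chicken assembly.

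H3K27me3 is laid down by Polycomb repressive complex 2, in which EZH1 or EZH2 is the catalytic subunit, while another subunit, EED, binds the mark once it is made, so that it can spread along a locus. The mark is bound in turn by complexes of the PRC1 class, which compact chromatin and hold genes silent. Its long domains classically lie over genes of developmental transcription factors and signalling molecules, of which the HOX clusters are the best known. H3K4me3 marks the promoters of active genes, but in embryonic and stem cells it also occurs together with H3K27me3, a combination called bivalent that is found at developmental genes which are silent but can be activated. H3K27ac marks active enhancers and promoters, and because the same lysine carries it, a single histone tail cannot bear both H3K27ac and H3K27me3.

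The long runs were few but held a large part of the mark. They contained 2992 of the 21738 H3K27me3 peaks on these chromosomes (13.8%) and 5.56 Mb of H3K27me3, or 31.5% of its covered length. Together they spanned 9.00 Mb, which is 0.863% of the 1042 Mb of chromosome span. The median span was 6459 bp, with quartiles of 4802 and 9740 bp, and 90% of the runs were shorter than 15537 bp. There were 241 runs of at least 10 kb and 52 of at least 20 kb, and the former made up 47.8% of the summed span. These values follow from the rule that chose the runs and are given as a description. At the threshold, the 5 shortest runs kept spanned 4000 to 4009 bp and the 5 longest left out 3992 to 3998 bp.

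Most runs were made of a few peaks with spaces between them. A single H3K27me3 peak made up 69 runs, 2 peaks made up 408 and 3 peaks made up 327, while 108 runs held 5 or more and the largest number was 18. A single peak of at least 4000 bp lay in 276 runs. The median run was covered by H3K27me3 over 57.8% of its length, with quartiles of 43.3% and 72.4%. The 1970 gaps inside runs measured 933 to 2999 bp, with a median of 1631 bp. The fold enrichment of a run, taken as the mean over its peaks weighted by width, had a median of 3.42 and ranged from 1.38 to 7.58. Fold enrichment here is the authors' linear ratio over local background.

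The 10 longest runs differed widely in enrichment and in their other marks. The longest lay on chromosome 1 at chr1:83895697-83982137 and spanned 86.4 kb, of which H3K27me3 covered 85.8%. Its mean fold enrichment was 2.004, rank 999 among the 1022 runs, and its 2 H3K4me3 peaks, with a fold enrichment of up to 2.08, covered 0.869% of it. The longest run was therefore among the weakest, and it was nearly devoid of H3K4me3.

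The runs that followed combined length with enrichment above the median of the long runs. The second and the fourth both lay on chromosome 13, at chr13:1482006-1552743 (70.7 kb, 6 H3K4me3 peaks) and at chr13:2506533-2570401 (63.9 kb, 7 H3K4me3 peaks). Their mean fold enrichments were 4.54 and 4.98. Chromosome 27 held the third at chr27:948407-1018267 (69.9 kb), the seventh at chr27:484755-530113 (45.4 kb) and the eighth at chr27:440528-481043 (40.5 kb). These 3 carried 16, 10 and 7 H3K4me3 peaks over 22.6%, 28.5% and 21.3% of their length, and the third held more H3K4me3 peaks than any other long run. All 3 lay in a part of chromosome 27 without H3K27ac, with the nearest H3K27ac peak 758 to 1295 kb away.

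The fifth run, chr9:12024412-12087783, was the most fully covered of the 10 longest. Its 6 H3K27me3 peaks covered 90.6% of 63.4 kb at a mean fold enrichment of 5.93, rank 31, and no gap exceeded 1506 bp. Its 12 H3K4me3 peaks, with fold enrichments of 2.54 to 4.70, covered 20.7% of it. The single H3K27ac peak in it measured 801 bp. The 3 that remain of the 10 longest were on chromosome 12 at chr12:13524936-13570490 (45.6 kb), chromosome 1 at chr1:90838185-90876815 (38.6 kb) and chromosome 28 at chr28:5054095-5091222 (37.1 kb). They held 3, 9 and 8 H3K4me3 peaks. Of the 10 longest runs, 2 held an H3K27ac peak, those on chromosomes 9 and 12.

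**Figure D1:**
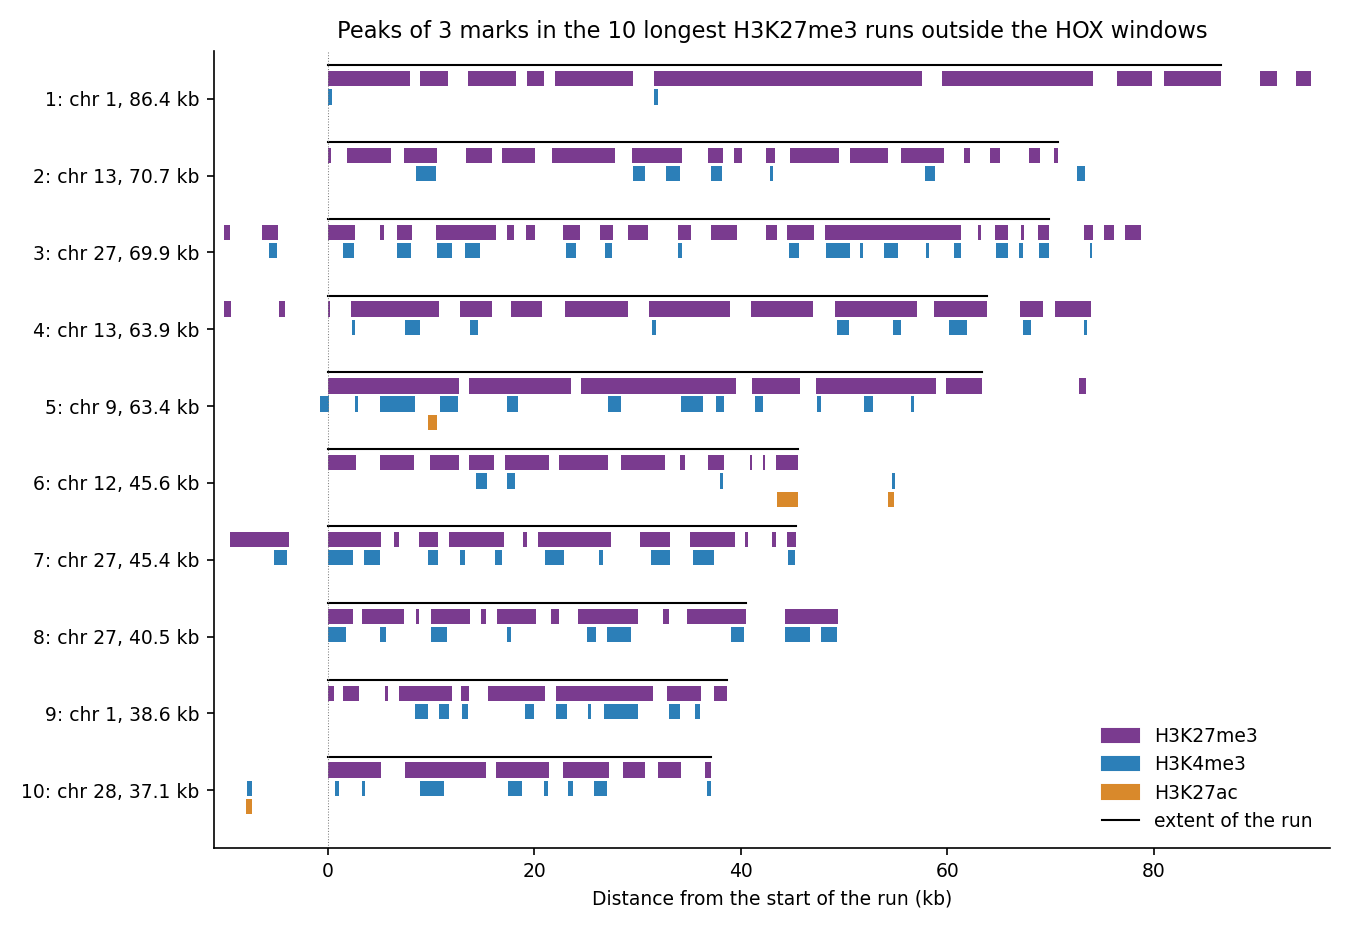
Peaks of H3K27me3, H3K4me3 and H3K27ac in the 10 longest runs and 10 kb on either side, against the distance in kb from the start of each run, with a black line for the extent of the run. H3K4me3 peaks lie along most runs, while the 86.4 kb run on chromosome 1 has 2 H3K4me3 peaks and only the runs on chromosomes 9 and 12 hold H3K27ac.

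Longer runs were on the whole more enriched, with a median of the mean fold enrichment of 3.07 at 4 to 6 kb, 3.48 at 6 to 10 kb, 4.18 at 10 to 20 kb and 4.66 from 20 kb. Across the 1022 runs, Spearman's rho between span and mean fold enrichment was 0.351, given as a description of runs from 1 library. The most enriched single runs were nevertheless short. The highest mean fold enrichment, 7.58, belonged to chr15:1212453-1216978, a single peak of 4526 bp. An H3K4me3 peak with a fold enrichment of 5.31 covered 43.7% of it and an H3K27ac peak with 4.07 covered 34.7%. The runs ranked 2 to 5 lay on chromosome Z at chrZ:82000578-82009364, on chromosome 8 at chr8:15068930-15076484 and chr8:14529332-14535787, and on chromosome Z at chrZ:24877767-24884242, with spans of 6456 to 8787 bp. Each of the 4 held 1 or 2 H3K4me3 peaks, and only chr8:14529332-14535787 held H3K27ac. Among runs of at least 20 kb, in a choice made after the values were seen, the strongest were chr4:43366398-43394776 (28.4 kb, mean fold enrichment 6.59), chr5:36826652-36848298 (21.6 kb, 6.19) and chrZ:58559213-58587176 (28.0 kb, 6.15), which held 5, 3 and 8 H3K4me3 peaks.

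**Figure D2:**
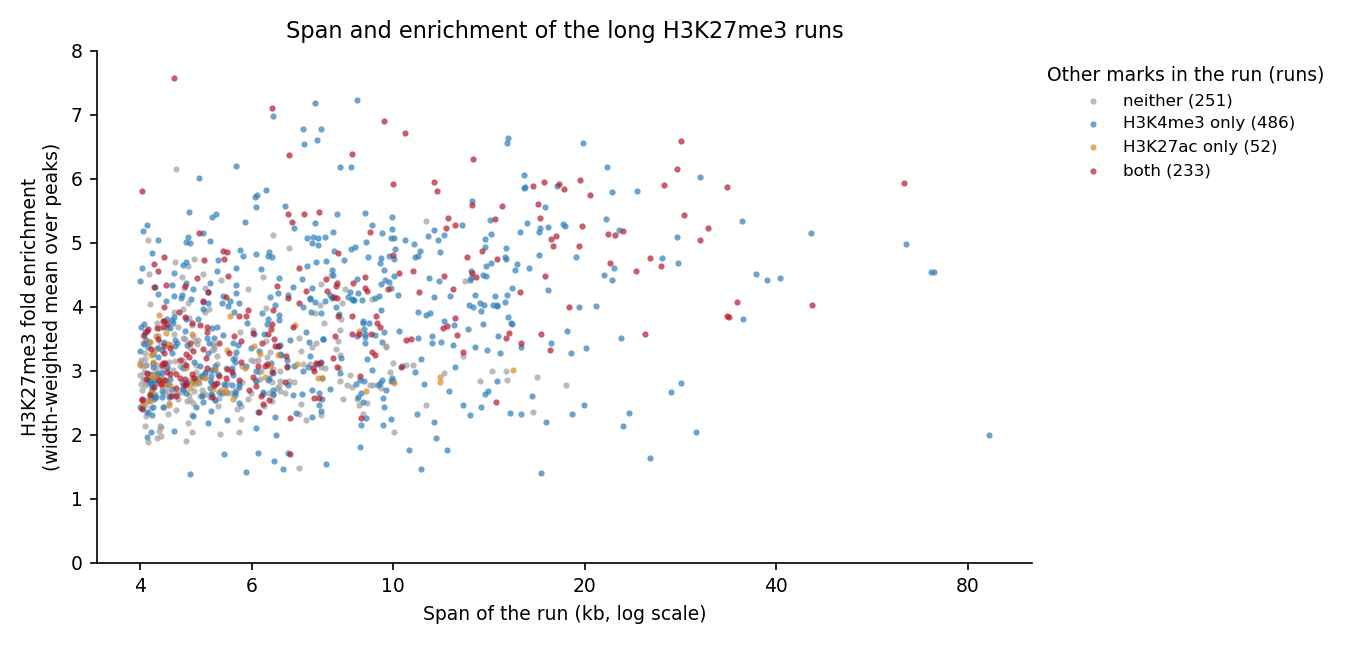
Span in kb on a log scale against the width-weighted mean fold enrichment of H3K27me3 for each of the 1022 long runs, coloured by the other marks in the run. Fold enrichment ranges from 1.38 to 7.58, the longest run lies near the lower edge at 2.004, and runs with neither mark, in grey, end at 18.7 kb.

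To ask what else the runs carried, H3K4me3 and H3K27ac peaks that overlapped them by 1 bp or more were counted. H3K4me3 was found in 719 of 1022 long runs (70.4%, interval 67.4 to 73.1), against 24.9% of all runs of any span. H3K27ac was found in 285 (27.9%, 25.2 to 30.7), against 22.1% of all runs. The runs thus met H3K4me3 far more often than the list as a whole, and H3K27ac at a share closer to it. Both shares depend on the strength asked of the other marks. With only H3K4me3 and H3K27ac peaks of a fold enrichment of at least 3, H3K4me3 was found in 42.2% of long runs, H3K27ac in 9.78% and neither in 55.5%. A longer run has more room to meet a peak, so that shares of runs of unequal span cannot be compared directly. The cover per length does not have this property. H3K4me3 covered 15.3% of the summed span of long runs, 13.4% of that of shorter runs, 15.9% of that of the HOX window runs and 1.64% of the chromosomes. H3K27ac covered 3.30% of the long runs, 12.5% of the shorter runs, 1.83% of the HOX window runs and 4.58% of the chromosomes. Per length, then, H3K4me3 was similar in long and shorter runs and many times its level over the chromosomes. H3K27ac in long runs lay below its level in shorter runs. Against the chromosomes it was lower only on autosomes under 50 Mb. There it covered 3.92% of long runs against 5.73% of the chromosomes at 20 to 50 Mb, and 2.83% against 8.84% under 20 Mb. On autosomes of 50 Mb or more it was 3.70% against 3.44%, and on Z 2.23% against 2.01%.

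Since long runs include gaps and shorter runs mostly do not, cover was also taken over the H3K27me3 peaks alone. H3K4me3 then covered 23.5% of the H3K27me3 peak length in long runs and 15.1% in shorter runs. H3K27ac covered 4.35% in long runs, close to the 4.58% of the chromosomes, and 14.1% in shorter runs. The cover by H3K27ac was lower in each longer class of span, and that by H3K4me3 was higher in each longer class from 500 bp upward. From runs under 500 bp to runs of 20 kb or more, the cover of H3K27me3 peaks by H3K4me3 went from 14.4% to 26.3%, and that by H3K27ac from 17.5% to 2.78%. The share of runs with H3K4me3 was 55.4% at 4 to 6 kb, 74.8% at 6 to 10 kb, 89.9% at 10 to 20 kb and 100% at 20 kb or more (52 of 52, interval 93.2 to 100). The share with H3K27ac was 27.9%, 25.2%, 29.1% and 40.4% in the same classes, with intervals that overlapped.

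**Figure D3:**
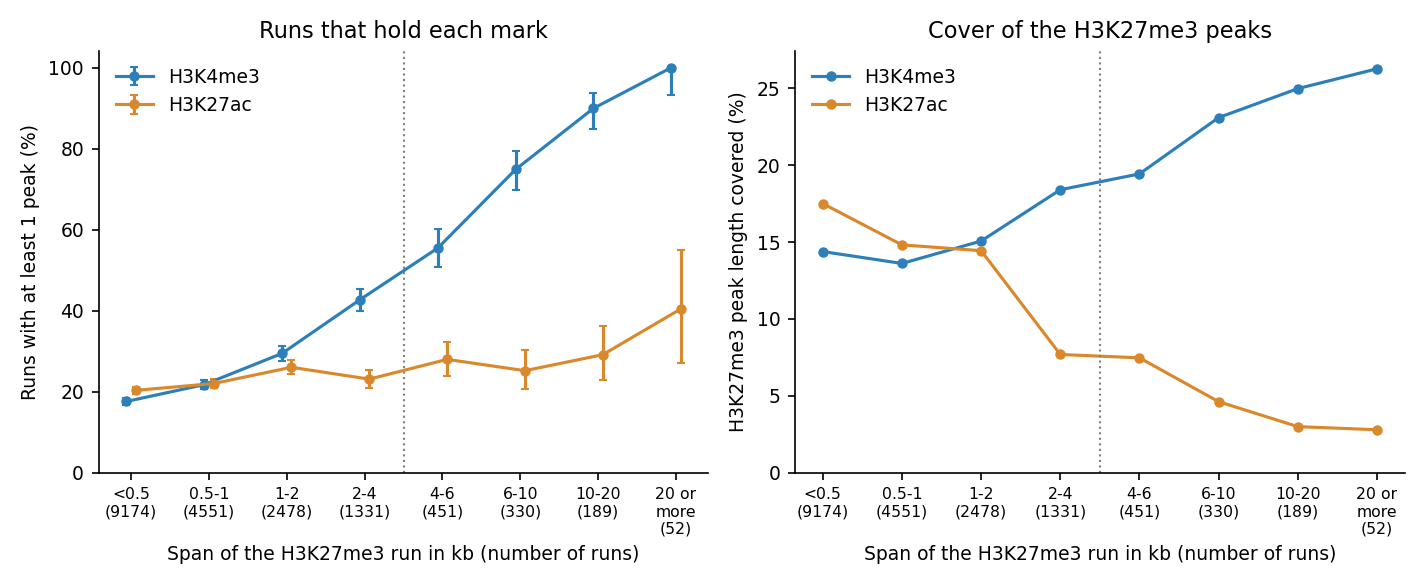
The left panel gives the percentage of H3K27me3 runs with at least 1 H3K4me3 or H3K27ac peak by span class in kb, with exact 95% intervals, and the right panel the percentage of H3K27me3 peak length that each mark covers, with no interval. The dotted line marks 4 kb, to the right of which H3K4me3 cover reaches 26.3% and H3K27ac cover 2.78%.

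Long runs were also more enriched than shorter ones, so both were compared within classes of the same mean fold enrichment. H3K27ac covered less of the H3K27me3 peaks in long than in shorter runs in all 5 classes. The values were 0.801% against 14.1% below 2.5, 5.38% against 14.3% from 2.5 to 3, 6.94% against 14.6% from 3 to 4, 3.35% against 9.94% from 4 to 5 and 3.60% against 6.75% at 5 or more. For H3K4me3 the order depended on the class. Long runs were covered more below a fold enrichment of 4, with 21.1% against 12.9% in the lowest class, and less above it, with 25.6% against 28.4% from 4 to 5 and 29.9% against 39.7% at 5 or more. The higher H3K4me3 cover of long runs over all classes together thus did not hold among the strongest runs.

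Among the long runs themselves, H3K4me3 was more frequent in the more enriched upper quartiles. In the quartile of the lowest mean fold enrichment, up to 2.82, 138 of 256 runs (53.9%) held H3K4me3, and in the highest, from 4.31, it was 240 of 256 (93.8%). The quartiles between had 54.1% and 79.6%, so that the lower pair had nearly the same share, and H3K4me3 covered 11.02% of the length in the lowest quartile and 8.55%, 16.1% and 20.8% in the next 3. In the finer classes it was found in 61.8% of runs below a fold enrichment of 2.5 and in 49.2% from 2.5 to 3. The quartiles differed in span as well, with medians of 5461 bp in the lowest and 9774 bp in the highest. H3K27ac was found in 16.4% of the lowest quartile and in 32.5%, 30.98% and 31.6% of the others. The H3K4me3 peaks themselves had a median fold enrichment of 2.06 in the lowest quartile of runs, against 2.85, 2.996 and 3.19 in the next 3. The H3K4me3 peaks were thus weakest where the H3K27me3 was weakest.

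By their other marks, the long runs fell into 4 classes. H3K4me3 alone was found in 486 runs (47.6%, 44.5 to 50.7, against 16.1% of all runs), both marks in 233 (22.8%, 20.3 to 25.5, against 8.84% of all runs), H3K27ac alone in 52 (5.09%, 3.82 to 6.62, against 13.3% of all runs) and neither in 251 (24.6%, 21.9 to 27.3, against 61.8% of all runs). Runs with neither mark or with H3K27ac alone were short and weak. Their median spans were 5072 and 4840 bp and their median fold enrichments 2.93 and 2.92. Runs with H3K4me3 alone had 7626 bp and 3.74, and runs with both marks 6881 bp and 3.73. Among the 241 runs of at least 10 kb, 150 had H3K4me3 alone, 72 both marks, 4 H3K27ac alone and 15 neither. The longest run with neither was chr4:85215556-85234238, of 18.7 kb in 5 peaks with a mean fold enrichment of 2.77. The longest with H3K27ac alone was chr13:10479055-10494464, of 15.4 kb, in which a single H3K27ac peak of 433 bp covered 2.81%.

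The H3K4me3 in long runs lay on the H3K27me3 peaks and seldom in the gaps between them. H3K27me3 peaks made up 61.7% of the length of the runs but held 94.8% of their H3K4me3 and 81.3% of their H3K27ac. H3K4me3 covered 23.5% of the peak length and 2.08% of the gap length, and H3K27ac covered 4.35% and 1.62%. Of the 1970 gaps, 209 (10.6%, 9.28 to 12.1) were met by H3K4me3 and 112 (5.69%, 4.70 to 6.80) by H3K27ac. The gaps were thus mostly free of any mark, with 37.0% of the length of the runs in no peak of the 3 lists. The bases with H3K27me3 and H3K4me3 together, without H3K27ac, amounted to 1182 kb or 13.1% of the length. Bases under both H3K27me3 and H3K27ac peaks amounted to 115 kb without H3K4me3 and 127 kb with it, or 1.28% and 1.41%. Peaks are called over a population of cells, and so these overlaps do not show that marks share a nucleosome, an allele or a cell.

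The H3K4me3 peaks of long runs were wide and rarely acetylated. Long runs overlapped 1431 H3K4me3 peaks, with 1 peak in 352 runs, 2 in 207 and 3 or more in 160. The peaks had a median width of 749 bp, with quartiles of 358 and 1293 bp, against 418 bp (278 and 831) for the 21250 H3K4me3 peaks that met no H3K27me3 run. The widest 5% of all H3K4me3 peaks, from 1548 bp, made up 18.0% of the peaks in long runs and 3.89% of those that met no run, although a wide peak also meets a run more readily. Their median fold enrichment was 2.96, the same as for the peaks without a run. Of the 1431 peaks, 1113 (77.8%) lay wholly on H3K27me3 peaks. Only 214 (15.0%, 13.1 to 16.9) overlapped an H3K27ac peak, against 35.1% (33.6 to 36.6) of H3K4me3 peaks that met a shorter run and 37.8% (37.1 to 38.4) of those that met none. In the HOX window runs it was 13 of 106 (12.3%, 6.69 to 20.1), an interval that includes the share in the other long runs.

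For the 371 H3K27ac peaks that met a long run the relation was the other way round. Of these, 217 (58.5%, 53.3 to 63.6) overlapped H3K4me3, against 37.1% (35.6 to 38.7) of H3K27ac peaks that met a shorter run and 19.1% (18.8 to 19.5) of those that met none. Their median width of 707 bp and median fold enrichment of 2.68 were close to the 762 bp and 2.66 of H3K27ac peaks outside runs. In the HOX window runs, 13 of 18 H3K27ac peaks (72.2%, 46.5 to 90.3) overlapped H3K4me3, an interval that includes the share in the other long runs. H3K4me3 itself covered 15.3% of the long runs and 1.64% of the chromosomes, and the part of this in the shares was not tested. A single H3K27ac peak was present in 212 long runs, 2 were present in 61, and 12 long runs held 3 or 4.

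A few short runs were covered by H3K4me3 nearly from end to end. On chromosome 1, chr1:4965864-4970225 (4362 bp) lay wholly inside an H3K4me3 peak of 11589 bp with a fold enrichment of 5.31, and H3K27ac covered 53.0% of it. On chromosome 6, chr6:18015164-18019285 (4122 bp) was covered by H3K4me3 over 99.9% of its length and by H3K27ac over 16.4%. H3K4me3 covered at least 50% of 38 runs and at least 25% of 205. Among runs of at least 10 kb the highest H3K4me3 cover was 66.4%, at chr2:114375987-114389496, followed by 62.2% at chr1:84187524-84202042 and 56.1% at chr8:22341344-22351786. These runs were not alike in strength. The H3K4me3 peaks had a fold enrichment of up to 3.73 in that on chromosome 2 and 4.35 in that on chromosome 8, but of at most 1.91 in that on chromosome 1.

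Dense H3K27ac was rarer. It covered at least 50% of 10 runs and at least 25% of 47. The highest cover, 75.9%, was found at chr14:2127570-2132668, where H3K4me3 covered 60.1% of the same 5099 bp. Among runs of at least 10 kb, the highest was 55.8% at chr19:9660369-9671336, which was met by 2 H3K27ac peaks, the wider of 6809 bp, and by 4 H3K4me3 peaks. The next, chr11:17397730-17407738, was a single H3K27me3 peak with a fold enrichment of 5.92 in which H3K27ac covered 25.4% and H3K4me3 30.98%. The third, chr20:11043644-11055495, had 23.6% H3K27ac and no H3K4me3.

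Position within runs was examined on the H3K27me3 peaks, since by the rule each run begins and ends with a peak. H3K27me3 covered 81.5% of the outermost of 10 equal parts and 55.7% of the innermost, where parts at the same distance from either edge were pooled. Of the H3K27me3 peak length, H3K4me3 covered 18.4% in the outermost parts, 21.7% in the next and 26.9% in the innermost. H3K27ac covered 5.59%, 4.47% and 4.02%, with 3.38% as the lowest value, in the parts next to the innermost. On the peaks, H3K4me3 was thus less dense at the edges than inside and H3K27ac somewhat denser. Of the whole run length, H3K4me3 covered 15.7%, 14.2% and 15.9% in the same parts, and H3K27ac 5.22%, 3.52% and 2.84%. Every run has peak length at its edges by the rule, while inner peak length comes more from runs densely covered by H3K27me3. The mix of runs thus differs between parts, and its share in the differences on the peaks was not tested. In runs of at least 10 kb, H3K4me3 covered 19.9% of the peak length in the outermost and 27.8% in the innermost parts, and H3K27ac 4.24% and 3.10%. Of the whole length of these runs, H3K4me3 covered 15.5% in the outermost and 18.5% in the innermost parts.

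The flanks of long runs were examined to see what surrounds them. The first 3 kb on either side hold no H3K27me3 by the rule, and there H3K4me3 covered 1.71% and H3K27ac 1.90%. From 3 to 10 kb, H3K27me3 covered 11.05%, H3K4me3 3.57% and H3K27ac 3.39%. From 25 to 50 kb these values were 6.90%, 2.52% and 3.80%. Over the chromosomes they were 1.69%, 1.64% and 4.58%. Even at 25 to 50 kb the surroundings, with other long runs included, were thus richer in H3K27me3 and H3K4me3 than the chromosomes at large. They were poorer in H3K27ac. The flanks were not split by chromosome size, with which the levels of all 3 marks differ, so its part in these differences was not tested. Around shorter runs, H3K27me3 covered 2.36% at 3 to 10 kb and 2.27% at 25 to 50 kb, H3K4me3 1.66% and 1.68%, and H3K27ac 3.57% and 4.08%. The lower H3K27ac was thus shared by the surroundings of shorter runs, and so, to a smaller degree than around long runs, was the higher H3K27me3. H3K4me3 around shorter runs lay near its level over the chromosomes. Part of the H3K4me3 beside long runs belonged to neighbouring runs. Over the 10 kb flanks as a whole it was 3.01%, and 1.94% once bases inside other long runs were removed, which left H3K27ac at 2.93%. Such bases were not removed at 25 to 50 kb, nor for H3K27me3 at any distance, although 324 of 990 neighbouring pairs of long runs lay within 50 kb. The part of other long runs in those values was not tested.

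**Figure D4:**
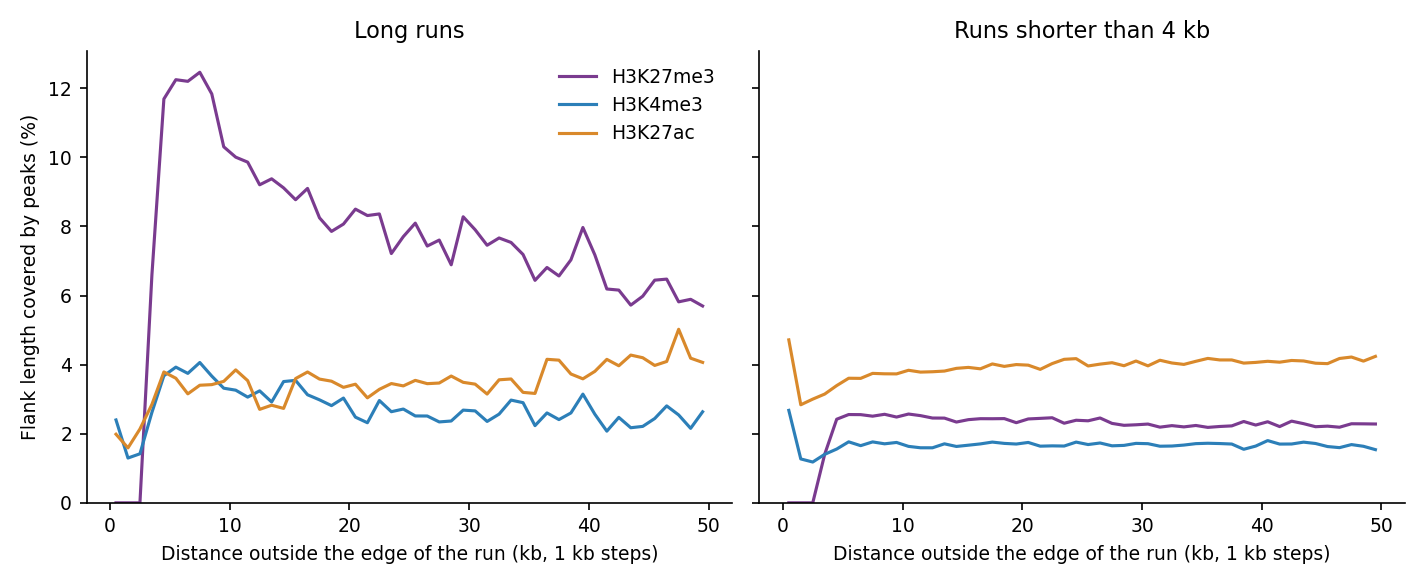
Percentage of flank length covered by peaks of each mark in 1 kb steps outside the edges of the 1022 long runs (left) and of the 17534 shorter runs outside the HOX windows (right), with both sides pooled and no error shown. H3K27me3 is 0 in the first 3 kb by the rule, exceeds 12% between 5 and 8 kb from long runs and stays below 3% around shorter runs.

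Flank acetylation differed with the content of the run. The content classes were set by H3K27ac itself, and a peak that crosses an edge counts both in the run and in its flank. How much of the difference near the edges comes from this was not tested. In the 10 kb on either side, H3K27ac covered 1.63% around runs with neither mark and 1.56% around runs with H3K4me3 alone, but 7.70% around runs with H3K27ac alone and 6.17% around runs with both. At 25 to 50 kb the values were 2.98%, 2.59%, 7.99% and 6.22%. Runs with H3K4me3 alone had the most H3K27me3 in these outer flanks, 8.83%, and runs with both marks the least, 3.37%. The median distance from a long run to the nearest H3K27ac peak outside it was 18990 bp, and to the nearest H3K4me3 peak outside it 9854 bp. For 292 runs (28.6%) no H3K27ac peak lay inside or within 50 kb, and 62 of these lay on chromosome Z. H3K4me3 was held by 183 of the 292, against 719 of all 1022 long runs. The share of shorter runs that lie as far from H3K27ac was not computed, so the 28.6% is given as a description.

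Many long runs lay in stretches without any H3K27ac. Intervals of at least 1 Mb free of H3K27ac made up 1.44% of the chromosomes and held 112 long runs (10.96%, 9.11 to 13.0). Intervals of at least 100 kb made up 31.5% and held 439 (43.0%, 39.9 to 46.1). Of the 112 runs, 39, 13 and 8 lay in the longest such interval of chromosomes 27, 31 and 33. The share of shorter runs in these intervals was not computed, so the shares of long runs are given as a description. H3K4me3 was present in 59 of the 112 runs (52.7%, 43.0 to 62.2) and in 296 of the 439 (67.4%, 62.8 to 71.8). On chromosome 27, 39 of the 55 runs lay in its first 1776 kb, which held no H3K27ac peak. Outside the HOX window, none of the 30 runs on chromosome 33 held H3K27ac, and neither did any of the 29 on chromosome 31, the 5 on chromosome 16 and the 4 on chromosome 30. H3K27ac covered 0.948% of chromosome 31 in all, 4.72% of chromosome 33 and 7.37% of chromosome 27. Of these 3, only chromosome 31 thus lay below the 4.58% of all chromosomes together.

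A part of the long runs lay close to one another. Of 990 neighbouring pairs, 161 (16.3%) were within 10 kb of each other and 324 (32.7%) within 50 kb, while the median distance was 248 kb. By the rule, neighbours lie more than 3000 bp apart. The same shares for shorter runs were not computed, so these values are given as a description. When runs within 50 kb were grouped, 524 runs stood alone, 381 lay in groups of 2 to 4 and 117 lay in 19 groups of 5 or more. The runs in large groups often had H3K4me3 but seldom H3K27ac. H3K4me3 was found in 82.9% (74.8 to 89.2) of runs in groups of 5 or more and in 68.5% (64.3 to 72.5) of runs that stood alone. H3K27ac was found in 8 of the 117 (6.84%, 2.998 to 13.0) and in 189 of the 524 (36.1%, 32.0 to 40.3). The grouped runs were longer, with a median of 8794 against 5725 bp, and per length the marks covered 14.7% against 15.3% for H3K4me3 and 0.518% against 4.49% for H3K27ac. The difference in H3K27ac thus remained per length, and that in H3K4me3 did not. Without chromosomes 27, 31 and 33, H3K27ac was found in 7 of 61 grouped runs (11.5%, 4.74 to 22.2) and in 37.2% (32.998 to 41.6) of those alone. Runs of a group share a locus and are not independent, so these intervals are too narrow.

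The 19 large groups lay on 11 chromosomes, and 6 of them were on chromosome 27. Groups of 8 runs lay at chr14:161348-364924, chr27:1536570-1685739, chr31:4469795-4629591 and chr12:107770-290313. The group at chr13:2344546-2590515 held 7 runs that covered 61.6% of 246 kb. The longest run of all belonged to a group of 6 on chromosome 1, and next to it, at chr1:84166031-84277288, 5 runs covered 84.8% of 111 kb. This pair of groups was picked out after the values were seen. Its 11 runs had mean fold enrichments of 2.004 to 3.35, all below the median of 3.42 of the long runs. Its H3K4me3 was uneven, covering 1.45% of the first group and 37.2% of the second, with fold enrichments of 1.29 to 2.91 in the peaks of the second. A single H3K27ac peak, of 320 bp, lay in the 11 runs.

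Long runs were densest toward chromosome ends. Within 500 kb of the ends of the chromosome span there were 152 runs, or 4.64 per Mb, against 2.08 per Mb from 500 kb to 1 Mb, 1.71 from 1 to 2 Mb, 1.36 from 2 to 5 Mb and 0.654 beyond 5 Mb. H3K4me3 was present in 76.3% (68.7 to 82.8) of the outermost runs and in 68.6% (64.4 to 72.7) of those beyond 5 Mb. The outermost runs were longer, with a median span of 7710 against 6272 bp, and per length H3K4me3 covered 16.6% against 15.5%. H3K27ac was present in 13 of the 152 (8.55%, 4.63 to 14.2) and in 32.7% (28.7 to 37.0), and it covered 0.650% against 3.66% of their length. Without chromosomes 27, 31 and 33, it was present in 13 of 131 outermost runs (9.92%, 5.39 to 16.4). Neither the density of shorter runs nor the H3K27ac cover of the chromosomes was computed by distance from the end. Whether these trends are particular to long runs was thus not tested. The outermost runs are in part the grouped runs described above. Large groups such as chr14:161348-364924 and chr12:107770-290313 lie within 500 kb of an end, so the 2 results on H3K27ac are not separate. Small chromosomes have a larger part of their length near an end, and the part of chromosome size in these values was not tested. The weakest runs also lay there in part, as the lowest mean fold enrichments, 1.38 and 1.40, belonged to the neighbours chr14:161348-166153 and chr14:170851-187920.

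By chromosome, density was higher in each smaller size class. Autosomes of 50 Mb or more had 0.627 long runs per Mb, those of 20 to 50 Mb had 1.04 and those under 20 Mb had 2.14. Without chromosomes 27, 31 and 33, set apart after the values were seen, the smallest class had 1.66. All H3K4me3 peaks also covered more of each smaller class, 1.48%, 1.73% and 2.44%. All H3K27me3 peaks covered 1.40%, 1.64% and 2.86%, but these include the long runs, which held 31.5% of the H3K27me3 covered length. Whether H3K27me3 outside long runs rises as well was not tested. Chromosome 27 had the most, 6.81 per Mb from 55 runs that took up 7.78% of its span, followed by chromosome 31 with 4.72 and chromosome 33 with 3.84. These counts leave out the HOX windows. Chromosome 32 alone had none. The median span differed little, from 6354 bp on the largest to 6972 bp on the smallest autosomes.

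H3K4me3 was found in 71.2% (66.4 to 75.7), 75.1% (68.5 to 81.0) and 73.4% (68.4 to 78.0) of runs in the 3 size classes of autosomes, with intervals that overlapped. H3K27ac was found in 34.3% (29.5 to 39.3), 32.99% (26.5 to 40.03) and 22.5% (18.2 to 27.3), although it covered 3.44%, 5.73% and 8.84% of the same chromosomes. The lower share on the smallest autosomes rested on chromosomes 27, 31 and 33, which held 3, 0 and 0 runs with H3K27ac. The other 17 autosomes under 20 Mb had it in 75 of 232 runs (32.3%, 26.4 to 38.8), close to the larger classes, and this division was made after the values were seen. Chromosome Z had 97 long runs, or 1.18 per Mb. H3K4me3 was found in 45 of them (46.4%, 36.2 to 56.8) and H3K27ac in 11 (11.3%, 5.80 to 19.4), both below the intervals of the largest autosomes. On Z as a whole H3K4me3 covered 1.03% and H3K27ac 2.01%, also below the 1.48% and 3.44% of the largest autosomes. The part of this lower level of both marks on Z in the shares of its runs was not tested.

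**Figure D5:**
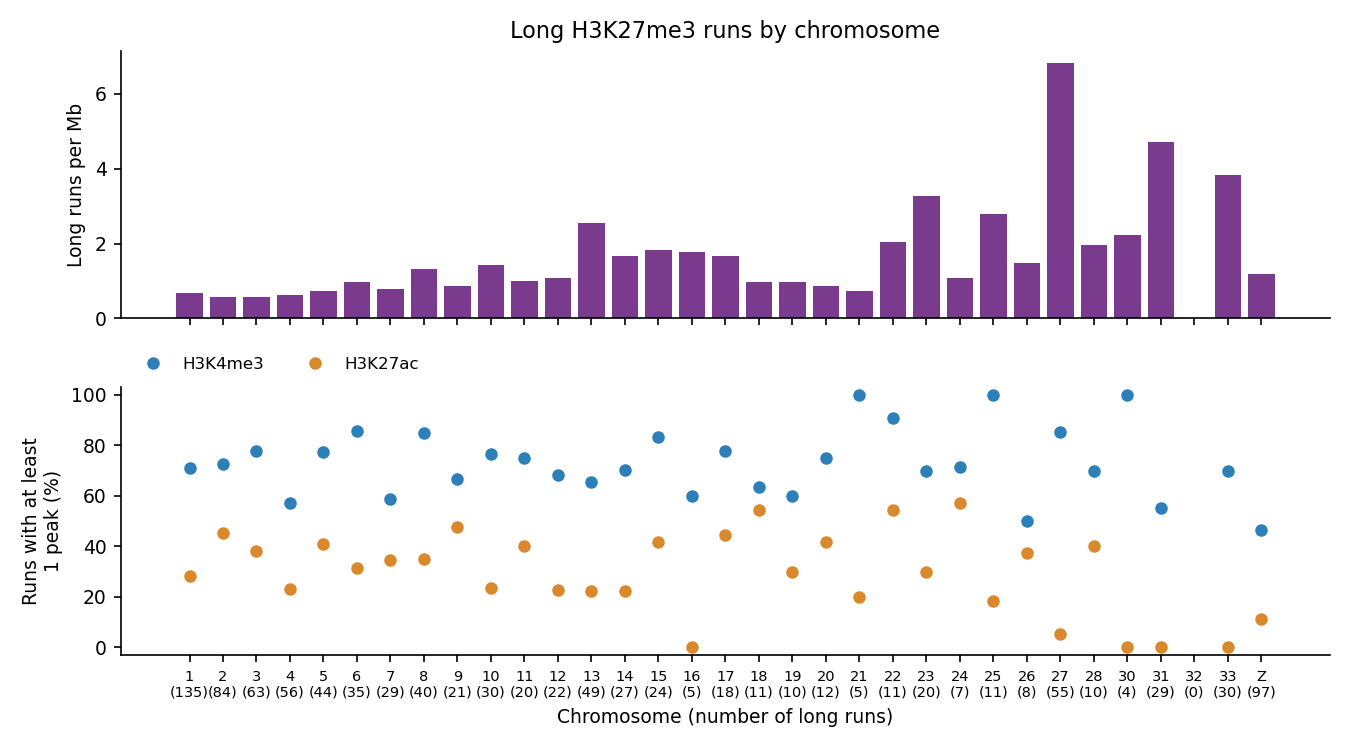
Long H3K27me3 runs per Mb of span by chromosome (top, bars from 0) and the percentage of these runs with at least 1 H3K4me3 or H3K27ac peak (bottom, points), with the number of runs in brackets and no error shown. Chromosome 27 stands highest at 6.81 runs per Mb, and no run holds H3K27ac on chromosomes 16, 30, 31 and 33, which have 5, 4, 29 and 30 runs.

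The largest runs in the HOX windows stood apart from the others by their size. Of these 15 runs, 4 spanned 93022 to 174621 bp, each longer than any run outside the windows, and the other 11 spanned 4071 to 14354 bp. In the 4 largest, H3K27me3 covered 81.9% to 92.2% at mean fold enrichments of 5.81 to 7.38. These lie within the range of the other long runs, but in its upper part, as the highest quartile of those begins at 4.31. H3K4me3 covered 9.56% to 22.1% of them, a range that holds the 15.3% of the runs outside. H3K27ac was absent from those on chromosomes 7 and 33 and covered 2.23% and 3.37% of those on chromosomes 2 and 27.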

How the data were processed

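Per the methods and the labels, OEP chromatin was immunoprecipitated by a protocol for small cell numbers. The authors trimmed reads with Trim Galore, aligned them to galGal6 with BWA and used MACS2 for broad peaks, with 1 list per library. Whether the input served as control is not given in the sources used here. The deposited fold enrichment is a linear ratio over local background, the deposited −log10 p-value and −log10 q-value belong to the same peaks, and the deposited score was not used.

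Joining, cover and overlap were computed in Python 3.11.15 with numpy 2.4.6, pandas 2.3.3 and scipy 1.17.1 and checked on simulated lists. The span of a chromosome was its largest peak end over the 3 lists. W and unplaced sequences were left out. The runs named are the 10 longest, the longest of each content class, the 3 of at least 10 kb with the highest cover by each other mark and those at the threshold. Runs ranked by fold enrichment or by cover at any span, and the groups, were chosen after their values were seen. Members, lists and comparisons were chosen with earlier results of these data known. Alternatives changed the gap, the least span, the peak thresholds, the overlap, the flank width and the set of runs.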

Additional observations from a re-analysis of the deposited data

How the results depend on the processing

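Of 117 values computed under 11 planned and 5 added alternatives, 76 stayed within their limits and 41 moved. The limit was the counting interval for shares and a change of 1.5 times for other values. Autosomes alone, runs outside groups of 5 or more, runs beyond 500 kb from chromosome ends, runs outside chromosomes 27, 31 and 33, and flanks without bases of other long runs were added after seeing the data. No value has a sign that could reverse.

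Joining across 1000 bp gave 375 runs, with H3K4me3 in 84.3%, H3K27ac in 19.5%, neither in 14.4%, H3K4me3 on 27.1% of their length and on 7.59% of the flanks. Joining across 5000 bp gave 1749 runs, with 59.1%, 33.5% and 30.3% in the same order and H3K4me3 on 1.68% of the flanks. A least span of 8000 bp gave 373 runs with a median of 12012 bp, H3K4me3 in 87.4% and neither mark in 10.99%. Runs that hold a peak of at least 4000 bp numbered 276, with a median span of 11144 bp, H3K4me3 in 93.1% and neither mark in 6.52%.

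Keeping peaks with q up to 0.01 gave H3K4me3 in 65.01%, H3K27ac in 16.5% and neither in 31.1% of runs, with H3K27ac on 1.72% of their length and 1.64% of the flanks. A fold enrichment of at least 4 for H3K27me3 left 296 runs, with H3K4me3 in 92.6%, H3K27ac in 23.6% and neither in 7.43%, and H3K4me3 on 23.9% of their length and 5.36% of the flanks. A fold enrichment of at least 3 for the other marks gave 42.2%, 9.78% and 55.5%, with H3K4me3 on 7.71% and H3K27ac on 0.964% of the length, and 1.32% and 0.804% of the flanks. These stricter lists are shorter by construction. On autosomes alone 21.9% of runs had neither mark, runs beyond 500 kb from chromosome ends had H3K27ac in 31.3%, runs outside chromosomes 27, 31 and 33 had it in 31.1%, and without bases of other long runs H3K4me3 covered 1.94% of the flanks. The cause of these shifts was otherwise not tested.

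H3K4me3 covered more of the long runs than of their flanks under each alternative for which both were computed. No paired analysis was possible because every mark was profiled in 1 library only. Counting the genes in runs was planned and not run, since an annotation of the build was not used here. Sequencing depth is unknown for all 3 marks.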
